A study of Mus musculus with 2 samples.

Results

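Distal accessible sites of the left cerebral cortex were joined into clusters, and the 500 clusters with the highest summed DNase signal are described here. DNase-seq cuts nuclear DNA lightly with DNase I and counts the cut ends, so that the signal is high where DNA is open. The tissue came from 2 female B6CASTF1/J mice aged 2 months, a cross between the C57BL/6J and CAST/EiJ strains, with no treatment in the labels. Each animal gave 1 library (replicate 1 or replicate 2), and both belong to 1 group, at depths that the signal values place at about 206 M and 208 M cuts. The labels number the females separately but give both the same donor entry. Bulk tissue mixes all cell types of the cortex, and fewer cells of a type and less opening per cell cannot be told apart.

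The members were chosen from the peak signal itself. Peaks of both libraries that overlapped by 1 bp were merged, and 78595 autosomal peaks were found in both. Of these, 52731 were distal, meaning that the centre lay more than 1 kb from every transcription start site (TSS) in GENCODE. Joining neighbours across gaps of at most a set length gave 4822 clusters of 3 or more peaks. Each was scored by the sum of its peaks' signal, averaged over both libraries, and the 500 highest were kept, which is 10.4% of the clusters. They hold 3467 peaks, 6.57% of the distal peaks, and 11.4% of the distal signal. The score, the signal of the peaks and the number of peaks were therefore used by the rule and are given as descriptions only.

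Genes with steady or cell-type-specific activity are often served by several enhancers, short regulatory stretches that bind transcription factors and act on a promoter at a distance. Stretches where such elements lie close together can be found by joining nearby sites, a procedure best known from histone acetylation or Mediator occupancy. The clusters here rest on accessibility alone, which open promoters, insulators bound by CTCF and small RNA genes also show. In cortex, immediate early genes such as Fos and Arc answer neuronal activity within minutes and are textbook examples of genes with several enhancers. Transfer RNA (tRNA) genes are short, often lie in groups, and are transcribed by RNA polymerase III from promoter elements inside the gene, called the A box and the B box.

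The sequences that follow are of peaks from clusters with high scores. For each of the 6 highest clusters the strongest peak was taken that had under 20% of its 31-base words repeated elsewhere in the genome and did not overlap an untranslated region, cut to its central 300 bases where longer. Peaks at Neurod2 and Slc17a7 were added after their values were seen. Sequences are from the RefSeq copy of GRCm38.p6 (mm10), plus strand unless stated. Capitals mark a tRNA gene or, elsewhere, a match to one of 23 consensus motifs searched on both strands.
Thra and Nr1d1 cluster, rank 1, intron of Nr1d1, chr11:98773861-98774160, capitals SP/KLF and RFX: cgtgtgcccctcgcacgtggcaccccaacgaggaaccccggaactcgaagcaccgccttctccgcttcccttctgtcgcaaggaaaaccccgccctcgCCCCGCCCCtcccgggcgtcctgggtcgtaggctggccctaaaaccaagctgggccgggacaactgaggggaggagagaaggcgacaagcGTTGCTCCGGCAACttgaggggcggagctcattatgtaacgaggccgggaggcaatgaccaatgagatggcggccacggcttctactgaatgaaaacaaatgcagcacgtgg
Lars2 cluster, rank 2, intron of Lars2, chr9:123438341-123438580, no match: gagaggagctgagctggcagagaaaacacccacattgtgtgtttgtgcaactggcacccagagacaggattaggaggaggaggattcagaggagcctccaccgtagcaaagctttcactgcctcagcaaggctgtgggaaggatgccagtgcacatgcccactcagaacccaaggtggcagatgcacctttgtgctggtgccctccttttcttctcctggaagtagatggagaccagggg
Ptma cluster, rank 3, between genes, chr1:86487451-86487750, no match: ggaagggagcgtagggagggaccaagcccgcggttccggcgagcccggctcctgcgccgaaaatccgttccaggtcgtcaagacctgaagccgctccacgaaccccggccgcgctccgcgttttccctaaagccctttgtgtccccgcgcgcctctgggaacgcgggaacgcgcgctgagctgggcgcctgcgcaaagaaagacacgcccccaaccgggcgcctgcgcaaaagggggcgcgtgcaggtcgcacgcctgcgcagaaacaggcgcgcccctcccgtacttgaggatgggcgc
Btn1a1 cluster, rank 4, tRNA-Tyr gene in capitals, minus strand, chr13:23432961-23433160: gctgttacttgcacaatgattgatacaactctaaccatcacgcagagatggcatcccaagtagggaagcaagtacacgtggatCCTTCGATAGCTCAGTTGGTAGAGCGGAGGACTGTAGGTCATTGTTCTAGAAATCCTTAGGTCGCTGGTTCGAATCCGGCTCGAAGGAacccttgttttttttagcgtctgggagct
Sfi1 cluster, rank 5, intron of Sfi1, chr11:3137401-3137560, capitals GATA: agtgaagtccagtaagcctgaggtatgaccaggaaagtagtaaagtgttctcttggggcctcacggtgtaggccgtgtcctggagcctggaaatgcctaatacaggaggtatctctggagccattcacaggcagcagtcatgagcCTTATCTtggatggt
Per1 cluster, rank 6, intron of Per1, chr11:69097021-69097280, capitals GRE, TEAD, CAGCTG and CRE in this order: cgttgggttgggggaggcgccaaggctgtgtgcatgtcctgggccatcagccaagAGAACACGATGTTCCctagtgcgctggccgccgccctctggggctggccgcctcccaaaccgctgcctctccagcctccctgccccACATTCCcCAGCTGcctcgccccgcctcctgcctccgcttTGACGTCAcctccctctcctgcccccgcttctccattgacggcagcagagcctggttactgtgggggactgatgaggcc
Neurod2 cluster, rank 13, between genes, chr11:98342661-98342900, capitals CTCF: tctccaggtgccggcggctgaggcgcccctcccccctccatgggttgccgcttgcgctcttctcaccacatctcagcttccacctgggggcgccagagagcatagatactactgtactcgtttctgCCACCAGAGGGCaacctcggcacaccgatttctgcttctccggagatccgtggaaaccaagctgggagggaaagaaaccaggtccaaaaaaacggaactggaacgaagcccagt
Slc17a7 cluster, rank 100, between genes, chr7:45162201-45162480, capitals NEUROD, T-box and CTCF in this order: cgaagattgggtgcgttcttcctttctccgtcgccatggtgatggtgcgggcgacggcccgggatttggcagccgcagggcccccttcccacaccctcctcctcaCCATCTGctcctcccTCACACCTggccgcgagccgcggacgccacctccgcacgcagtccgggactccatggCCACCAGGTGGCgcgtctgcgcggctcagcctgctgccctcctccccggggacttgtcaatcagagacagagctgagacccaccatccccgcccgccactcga

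The printed peaks differ in kind. The one at Btn1a1 holds a whole tRNA gene of 88 bases, which contains the letters GGTTCGA, the core of the B box. The peaks at Thra, Ptma, Per1 and Slc17a7 are rich in G and C, between 63.0% and 69.7%. In the Neurod2 and Slc17a7 peaks a CTCF consensus lies in the printed stretch. Read on either strand, CRE is TGACGTCA, TEAD is ACATTCC, NEUROD is CAGATGG and the GATA motif is AGATAAG, and 0.343%, 2.21%, 9.13% and 1.13% of all distal peaks held them in a central window of 150 bp. The same shares were 15.4% for the E-box CAGCTG, 7.78% for CTCF, 0.943% for SP/KLF, 0.751% for T-box, 0.214% for the glucocorticoid response element (GRE) and 0.199% for RFX. A consensus match describes the letters and is not a binding site. At Lars2 the strongest peak was passed over, and at Sfi1 the 5 strongest were. Of the words of the strongest peak, 60.5% at Lars2 and 47.6% at Sfi1 occur elsewhere in the genome. The strongest Lars2 peak also overlaps an untranslated region. The printed peaks had mean signals of 1.29 at Lars2 and 1.25 at Sfi1, against 37.6 and 11.4 for the strongest peaks. These 2 printed sequences therefore carried little of their clusters' scores.

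The highest cluster lay across Thra, Nr1d1 and Msl1 on chromosome 11. Thra encodes a thyroid hormone receptor, Nr1d1 the clock repressor REV-ERB alpha and Msl1 a subunit of a histone acetyltransferase complex. The cluster spanned 66.4 kb with 23 peaks and scored 37.5 in replicate 1 and 42.3 in replicate 2. Its strongest peak, the one printed above, had a signal of 5.42 and 6.52 and made up 14.96% of the score. A peak 42.87 kb downstream of the Thra start had 5.13 and 5.99, so that no single site dominated.

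The Lars2 cluster scored 36.9 and 42.8 with 3 peaks, and 94.4% of its score came from the 1 peak with repeated words. Lars2 encodes the mitochondrial leucyl-tRNA synthetase. The score of this cluster is therefore that of a single peak, and the part that repeated sequence has in it was not tested. The cluster at Ptma, which encodes the small nuclear protein prothymosin alpha, scored 37.5 and 41.9 over 12 peaks in 46.3 kb. Its strongest peak lay 39.12 kb upstream of Ptma.

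Further down, several clusters lay at genes of neuronal or general function. Cluster 6 covered Per1, a core clock gene, with Vamp2, a synaptic vesicle protein, and Hes7, and scored 23.9 and 29.5. Its strongest peak lay 1.93 kb inside Per1, had 4.66 and 5.88, and held consensus matches of CRE, bound by CREB factors, and of GRE, bound by the glucocorticoid receptor. Cluster 8 overlapped no coding gene and lay over Mir9-3hg, the host transcript of the microRNA miR-9 in brain, with 18 peaks and scores of 25.2 and 26.6. Cluster 9 lay 47.9 kb from the nearest coding TSS, that of Irf2bpl, and scored 25.9 and 25.6, the one cluster of the 20 highest that was not higher in replicate 2. Cluster 12 lay 39.3 kb from Camk2n1, an inhibitor of CaM kinase II, with 17 peaks and scores of 23.2 and 24.5. Cluster 14 lay over Calm3, a calmodulin gene, with scores of 22.4 and 23.7, and cluster 20 over Synpo, which encodes the dendritic spine protein synaptopodin, with 20.4 and 21.98. Others of the 20 lay over Sfi1 (27.7 and 28.8) and Kdm6b, a histone demethylase gene (22.4 and 23.2). The strongest Sfi1 peak held the repeated words given above. Further ones lay over Cfap126 with Sdhc (21.1 and 23.9) and Wnt6 with Wnt10a (20.7 and 23.5). Still others lay nearest to 1700001O22Rik (21.8 and 23.7) and Trim27 (19.4 and 23.8). The gene names do not account for these scores: peaks on tRNA genes made up 69.1% of the score at Cfap126 and 65.5% near Trim27. They made up 48.8% in the Per1 cluster and 14.4% at Wnt6.

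**Figure D1:**
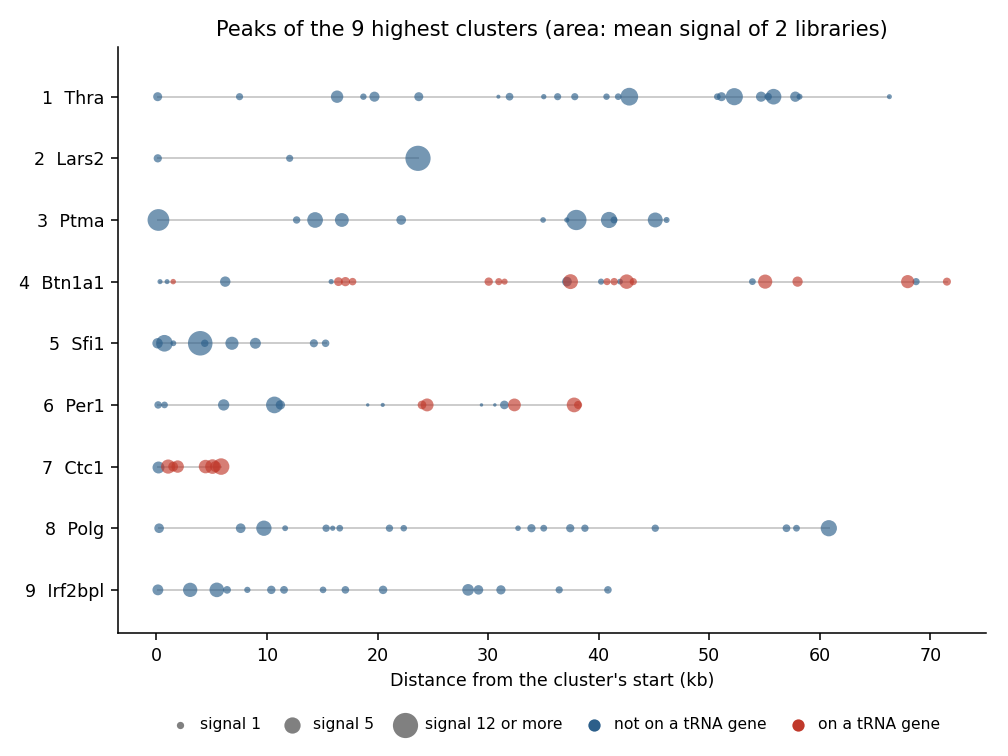
Peaks of the 9 highest clusters by distance from the cluster's start in kb, 1 line per cluster with its rank and the gene that names it. Circle area gives the mean signal of both libraries up to 12, and red marks peaks on tRNA genes: 16 in cluster 4, 5 in cluster 6 and 7 in cluster 7.

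Peaks on tRNA genes formed a large part of the highest clusters. GENCODE start sites hold no tRNA genes, so peaks on them count as distal under the rule. Of the 173 distal peaks that overlapped a RefSeq tRNA gene, 125 lay in the 500 clusters, which is 72.3%, while 6.57% of all distal peaks did. They fell in 35 clusters, 7.0% of the members and 35.0% of the 20 highest, against 11 of the 4322 other clusters (0.255%). Of the 20 highest, 7 held a tRNA peak, but 3 did when replicate 2 was left out and 1 when clusters were scored by number of peaks. In 26 of the 35, tRNA peaks made up more than 50% of the score. The signal of a peak was part of the rule, and the tRNA peaks had a median signal of 2.52 against 1.12 in the other member peaks.

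The tRNA clusters were compact, and most of their tRNA peaks lay on chromosomes 11 and 13. Chromosome 13 had 8 of the 35 clusters with 45 of the 125 tRNA peaks, and chromosome 11 had 9 with 30. Their median span was 12.96 kb, against 21.1 kb for the members without tRNA peaks. Cluster 4 held the most tRNA peaks, 16 in 71.6 kb, which made up 77.4% of its score. Within it the tRNA-Tyr peaks at n-TYgta3, n-TYgta4, n-TYgta5, n-TYgta7 and n-TYgta8 had mean signals of 1.32, 0.951, 0.709, 4.20 and 1.22. The signal at gene copies for the same amino acid thus differed widely. In the same order, 15.29%, 19.53%, 19.75%, 12.35% and 14.67% of the peaks' 31-base words occur elsewhere in the genome. The mean share was 18.95% in member tRNA peaks and 1.875% in the other member peaks. How much of the difference between copies goes with repeated words was not tested. In cluster 7, near Ctc1, 7 of 8 peaks lay on tRNA genes and their mean signals ran from 1.81 at n-TSaga4 to 5.17 at n-TWcca7. At n-TWcca7 the libraries gave 4.88 and 5.45.

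Across all members, 128 of the 386 autosomal tRNA genes lay in a cluster peak, and 233 had a peak shared by both libraries at any distance from a start site. The 128 genes covered 20 amino-acid products, led by tRNA-Leu with 14 genes and by tRNA-Ala, tRNA-Arg and tRNA-Pro with 10 each. The B box core GGTTCGA, searched on both strands, lay in 53.6% of the central 150 bp windows of the member tRNA peaks. It lay in 41.7% of those of the 48 other distal peaks on tRNA genes. The shares were 0.269% for the other member peaks and 0.349% for all distal windows. The B box is part of a tRNA gene, so the contrast with these follows from how the tRNA peaks were chosen. The capitals of the tRNA-Tyr line above show it near the 3′ end of the gene. Footprints, short protected stretches within open DNA that the authors called per library, were found in 99.2% and 100% of the member tRNA peaks. Of these peaks, 84.0% were in the highest of 5 equal signal classes of distal peaks, a class in which 99.4% of all member peaks and 99.8% of peaks in no cluster held one.

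**Figure D2:**
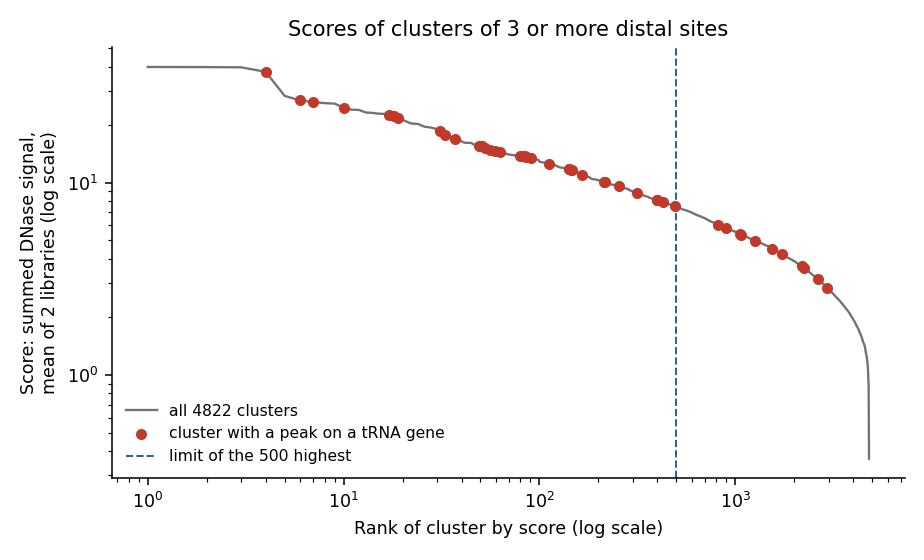
Score of each of the 4822 clusters against its rank, both on log scales, with clusters that hold a tRNA gene peak in red and the limit of the 500 highest as a dashed line. The score fell from 39.9 at rank 1 to 7.50 at rank 500, and 35 red points lie to the left of the limit and 11 to the right.

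The limit cut through a smooth range of scores. The last members were Cacna1s at 7.503, Pcdh1 at 7.502 and Rtbdn at 7.497, and the first clusters left out were Katnal1 at 7.489, Sypl at 7.478 and Pfdn4 at 7.462. A tangent to the ranked scores, the usual way of setting a limit in such rankings, left 365 clusters above a score of 8.31. Scores of the 2 libraries were within 1.5-fold in 499 of 500 members after the general difference was removed, and in 98.96% of the other clusters, all built from peaks required in both libraries. Of the 500, 468 were also among the 500 highest by the signal of replicate 1 alone, and 468 by that of replicate 2 alone. When clusters were built from the peaks of a single library, their 500 highest overlapped 356 members with replicate 1 alone and 391 with replicate 2 alone. In 453 clusters the score was higher in replicate 2, with a median ratio of 1.13.

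A typical member was a stretch of 20.9 kb with 6 peaks, and peaks covered 9.91% of the summed spans. The number of peaks ran from 3, in 41 clusters, to 54 at Rassf2, which encodes a Ras association domain protein. At Rassf2 the 54 peaks filled 67.4 kb with scores of 11.72 and 11.96, so its rank of 137 came from many weak sites. The strongest peak made up a median of 33.2% of the score in the members and 42.5% in the other clusters. It made up more than 50% in 80 members (16.0%) and in 28.0% of the other clusters. Rank therefore arose in both ways, from many sites or from a single strong site. The longest members were those at Slc6a17, a neuronal amino acid transporter gene (75.3 kb), Aim2, an inflammasome sensor gene (75 kb), and Btn1a1 (71.6 kb).

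Neighbouring peaks lay a median of 2.27 kb apart, and 387 of the 2967 gaps were 200 bp or less, of which 35 were 0 bp because touching peaks were not merged. Chromosome 11 had 62 members, or 50.8 per 100 Mb, and chromosome 3 had 8.75 per 100 Mb. Chromosome 11 also had the most distal peaks per Mb, 29.7 against 16.7 on chromosome 3.

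The clusters lay close to genes more often than the other clusters did. A protein-coding gene body was overlapped by 352 members (70.4%) and by 61.2% of the other clusters. Bodies of 2 or more coding genes were overlapped by 20.6% and 6.83%, and a coding TSS lay inside the span of 34.4% and 12.2%. Members were also longer, with a median span of 20.9 kb against 11.04 kb, and how much of these differences goes with length was not tested. The nearest coding TSS was more than 50 kb away in 81 members (16.2%) and in 38.6% of the other clusters. No annotated gene of any kind lay in 93 members (18.6%) and in 29.4% of the other clusters. Some genes held several members: 3 lay in Gse1, and 2 each in Adgrb1, an adhesion receptor of synapses, and Lingo1, among others. The annotated gene Gm20388 is 4435 kb long, contains Gse1 and gives its name to 7 members, so that its name says little about them.

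Of the 14 gene lists that were looked up, the immediate early genes had the largest share at the clusters. A gene was counted when its body with 10 kb on either side overlapped a member, which held for 745 of 20807 autosomal protein-coding genes, or 3.58%. Of 22 immediate early genes 8 were counted (36.4%), although their median length was 5.69 kb, shorter than the 17.6 kb of all genes. The share over all genes changed little with length, with 3.22% in the shortest, 3.71% in the middle and 3.82% in the longest of 3 equal classes. The count was 4 at a distal limit of 2.5 kb and 5 when clusters were scored by number of peaks. Of all coding genes, 2.55% and 3.15% were counted under these settings. The 8 genes were Fosb, Fos, Nr4a1, Btg2, Arc, Npas4, Egr3 and Nr4a3, each at a cluster of its own, with 58 peaks in all. Lists and members were both chosen with results of these data known, and the share is a description.

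Around Fos, a subunit of the AP-1 transcription factor, 11 peaks spread from 18.45 kb upstream to 34.55 kb downstream of the gene start. The cluster scored 18.5 and 20.4 and ranked 27. Its strongest peak, 12.22 kb downstream, had 5.06 in replicate 1 and 6.66 in replicate 2, and the peak 18.45 kb upstream had 3.85 and 4.22. Peaks at 5.85 and 1.64 kb upstream were weaker, with 1.38 and 1.11 for the former and 1.42 and 1.21 for the latter. The distal sites of highest signal thus lay on both sides of the gene, beyond 10 kb.

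Fosb, which encodes a partner of Jun like Fos, shared cluster 11 with Rtn2, and the 11 peaks scored 21.85 and 26.01. Its strongest peak lay 14.05 kb downstream of the Fosb start with 4.82 and 5.94, and another 10.14 kb upstream had 4.16 and 5.07. Both lay outside Fosb, in annotated exons of other genes. The cluster ends of Arc, a postsynaptic protein gene, were closer to the gene: 9 peaks from 6.61 kb upstream to 13.05 kb downstream had mean signals between 0.695 and 2.09. At Npas4, an activity-dependent transcription factor gene, a pair of peaks 11.60 and 11.98 kb upstream had 2.83 and 3.30 for the former and 2.54 and 3.45 for the latter. The 5 peaks at Nr4a1, an orphan nuclear receptor gene, all lay upstream, and the strongest at 13.40 kb had 3.62 and 3.66. Egr3, a zinc finger factor gene, had its strongest peak 2.13 kb upstream with 4.62 and 4.10, and here replicate 1 was the higher.

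In the 58 peaks of these 8 clusters the AP-1 consensus TGANTCA was found in 5 (8.62%), against 9.47% of all distal peaks. The EGR consensus was found in 2 peaks (3.45%), both at Egr3, and in 0.205% of all distal peaks. The CRE consensus was found in 1 (1.72%), at Btg2, and in 0.343% of all distal peaks. The MEF2 consensus was found in none, and 0.379% of all distal peaks held it. Of the 58 peaks, 53 held a footprint in replicate 1 (91.4%) and 51 in replicate 2 (87.9%), near the 89.9% and 89.7% of all distal peaks.

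**Figure D3:**
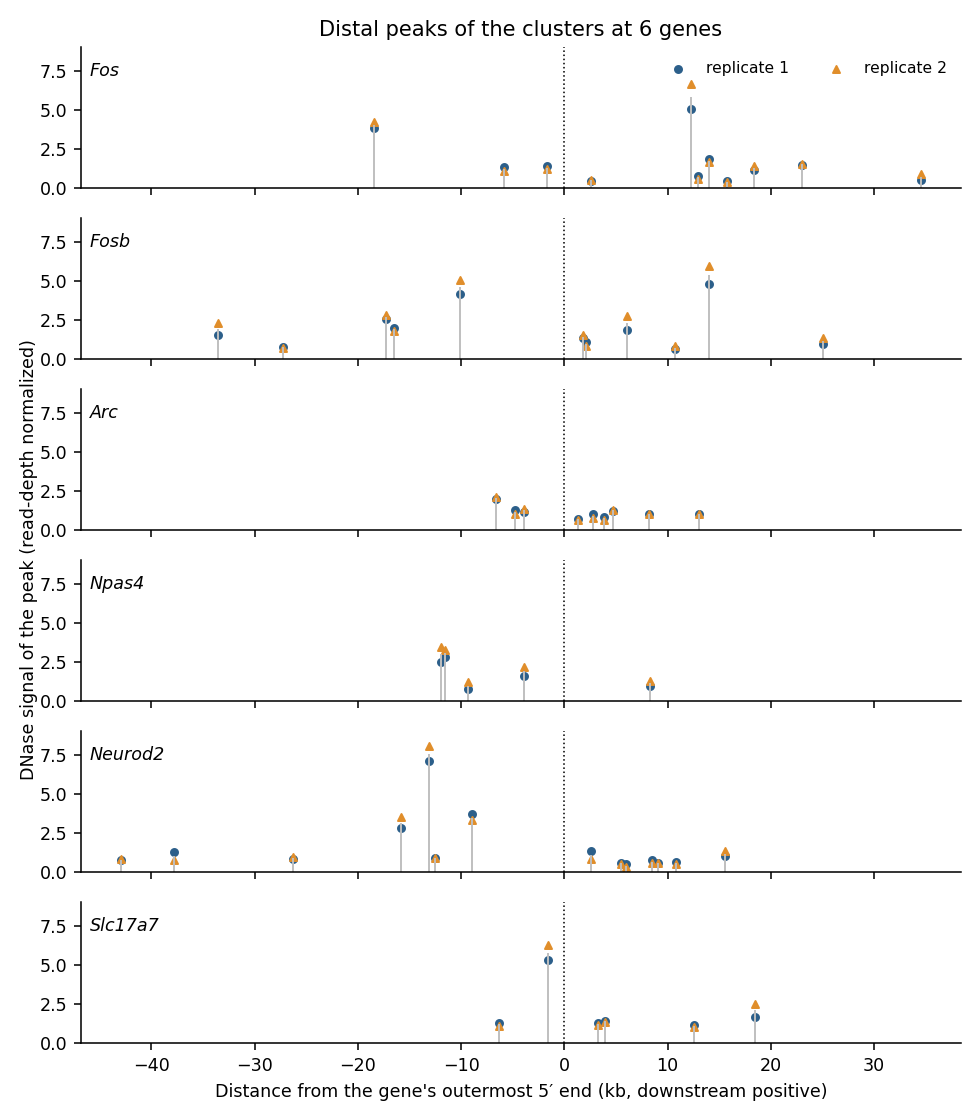
Signal of every distal peak in the clusters at 6 genes by distance from the gene's outermost 5′ end in kb, downstream positive, with replicate 1 as circles, replicate 2 as triangles and the mean as a line. The strongest peaks lie 12.22 kb downstream of Fos, 14.05 kb downstream of Fosb and 13.13 kb upstream of Neurod2.

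Among genes of cortical excitatory neurons, 4 of 24 were counted (16.7%, against 3.58% of all coding genes): Neurod2, Lingo1, Slc17a7 and Camk2a. The list has a median gene length of 77.9 kb, and 3.82% of the longest class of all coding genes were counted. Without replicate 2 the count was 7, and 4.15% of all coding genes were counted. Neurod2 is a bHLH transcription factor of projection neurons, Lingo1 a neuronal surface protein, Slc17a7 the vesicular glutamate transporter VGLUT1 and Camk2a the alpha subunit of CaM kinase II. The Neurod2 cluster, shared with Ppp1r1b and Stard3, scored 23.0 and 23.3. Its strongest peak lay 13.13 kb upstream of Neurod2 with 7.11 and 8.06, and another 15.79 kb upstream had 2.80 and 3.54. Both held a CTCF consensus. At Slc17a7 the strongest peak lay 1.61 kb upstream with 5.31 and 6.29 and made up 45.2% of the score. It was the peak printed above with NEUROD, T-box and CTCF matches, and 9 and 8 footprints were called in it.

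Of 21 glutamatergic synapse genes 3 were counted (14.3%, against 3.58% of all coding genes), namely Shank1, Grin2b and Shank2. The Shank1 cluster, at a gene for a scaffold of the postsynaptic density, scored 10.2 and 11.4. The Grin2b cluster lay deep within this NMDA receptor subunit gene, between 265.80 and 278.60 kb from its start, and scored 6.95 and 8.39. The list holds long genes, with a median length of 378 kb, and 3.82% of the longest class of all coding genes were counted.

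Of 21 oligodendrocyte genes 3 were counted (14.3%, against 3.58% of all coding genes), namely Mobp, Mbp and Opalin, all of myelin. The count was 1 at a maximum gap of 6 kb. At Mobp the 6 peaks lay 21.77 to 60.56 kb downstream of the start. The strongest, with 3.65 and 4.37, lay at 41.89 kb, beyond the end of the gene. At Mbp the 5 peaks lay 92.73 to 103.72 kb downstream, within the gene, the strongest with 2.86 and 2.85. All 6 peaks counted for Opalin lay upstream of it, by 9.77 to 43.04 kb. For Mobp in part and for Opalin the count thus rests on nearness. Of 20 astrocyte genes 1 was counted (Id3) and of 19 microglial genes 1 (Cx3cr1), shares near the 3.58% of all genes. None of 20 inhibitory neuron genes and none of 20 endothelial and pericyte genes was counted, against 3.58% of all coding genes. At a cluster of 3 or more peaks of any score lay 4 and 2 of them, and 19.1% of all coding genes.

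The control lists place these counts. None of 20 Hox genes was counted, and none lay at a cluster of 3 or more peaks of any score, against 3.58% and 19.1% of all coding genes. Of the 98 control genes together 5 were counted (5.10%): Pck1 of liver, Cacna1s of muscle, Cd4 and Cd2 of lymphocytes and Krt8 of epithelia. By list these were 2 of 18 lymphocyte genes (11.1%) and 1 of 20 (5.0%) each for liver, muscle and epithelia. The lymphocyte share was thus not far below the 14.3% of the synapse and oligodendrocyte lists. Counting rests on nearness alone: the cluster counted for Krt8 lay 16.19 to 30.64 kb downstream of its start, beyond the gene, and had scores of 15.3 and 18.5. A peak shared by both animals lay within 500 bp of the start of 71.4% of the counted genes and of 59.7% of the others. The median signal of those promoter peaks was 2.936 and 3.004, so that counted genes had a promoter peak more often, with a median signal that differed little.

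**Figure D4:**
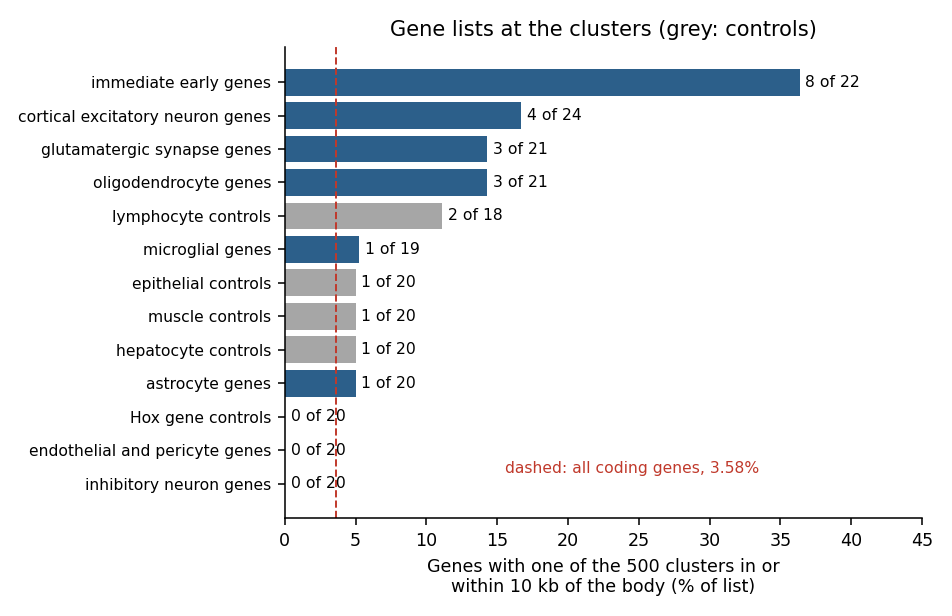
Percent of each gene list, for 13 of the 14 lists, with one of the 500 clusters in or within 10 kb of the gene body, with counts beside the bars and control lists in grey. The dashed line is the 3.58% of all autosomal coding genes, and immediate early genes reach 36.4%.

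Member peaks held footprints about as often as distal peaks in general, and both member peaks and peaks in other clusters held them less often than unclustered peaks of the same signal class. At least 1 footprint lay in 91.8% of member peaks in replicate 1 and in 91.2% in replicate 2, and in 89.8% ± 0.103 (SD, n = 2) of all distal peaks. All distal peaks were divided into 5 equal classes by signal. In class 1, the weakest, 51.7% ± 4.55 of member peaks, 62.6% ± 0.103 of peaks in other clusters and 73.3% ± 0.748 of peaks in no cluster held a footprint (SD, n = 2). The member peaks of that class were also weaker, with a median signal of 0.203 against 0.347 in peaks of no cluster. In class 4, where the median signals of members and of peaks in no cluster were 0.989 and 0.964, the shares were 93.7% ± 0.478 and 98.4% ± 0.0586, with 97.4% ± 0.487 in other clusters. In all 5 classes the values of both libraries were lower in members than in other clusters, and lower in other clusters than in peaks of no cluster.

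Footprints per kb of peak gave the same order. In class 4 members had 8.51 ± 0.696 and peaks of no cluster 10.1 ± 0.584 (SD, n = 2). Member peaks of class 4 were wider, with a median of 320 bp against 240 bp. Among single clusters the density ran from 3.36 per kb at Adarb1, an RNA-editing enzyme gene, and 3.41 at Rassf2, to 23.2 near Lrrc74a. The Lrrc74a cluster had 3 peaks with 15 footprints in replicate 1 and 11 in replicate 2.

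**Figure D5:**
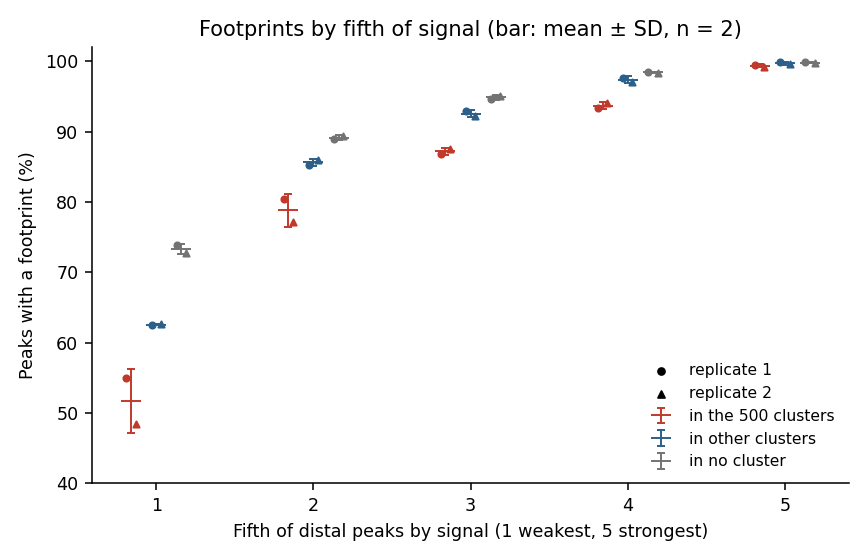
Percent of peaks with a footprint in 5 equal classes of signal, for peaks in the 500 clusters, in other clusters and in no cluster, with each library as a point and the mean ± SD as a bar (n = 2). Members sit below the peaks of no cluster, by the widest margin in class 1 (51.7% against 73.3%).

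Sequence of the member peaks was richer in G and C and in CpG than that of distal peaks in general. The median GC content was 55.0% against 51.5%, and CpG pairs numbered 30.4 per kb against 22.1. Some consensus matches that are more frequent in promoters than in distal peaks were also more frequent in members. SP/KLF was found in the central 150 bp of 2.08% of member peaks, of 0.943% of all distal peaks and of 7.38% of RefSeq promoter windows. The same order held for the ETS consensus with 0.490%, 0.243% and 1.67%, and for CRE with 0.808%, 0.343% and 1.09%. Others went the other way: the homeodomain consensus TAATTA was found in 1.18% of member peaks, 1.80% of all distal peaks and 3.06% of promoter windows, and the GATA, PU.1, SOX and POU octamer consensus were also less frequent in members than in distal peaks and most frequent in promoters. A RefSeq transcript start lay within 1 kb of the centre of 8.05% of member peaks and of 4.59% of all distal peaks. All GENCODE starts lay more than 1 kb from these centres, and whether the RefSeq starts are absent from GENCODE was not checked.

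Consensus matches of neuronal and activity-dependent factors differed in direction. AP-1 was found in 6.95% of member peaks and 9.47% of all distal peaks and the NEUROD E-box CAGATGG in 7.50% and 9.13%. MEF2 was found in 0.375% and 0.379%. EGR and, as given above, CRE were more frequent in members, EGR with 0.462% against 0.205%, which is 16 member peaks. A window without a match says only that these letters are absent from it.

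Of the 23 motifs, CTCF differed most in percentage points between the strongest and the other peaks of a cluster. It was found in 20.2% of the strongest peaks of the 500 clusters and in 7.11% of their other peaks. At least 1 match lay in 227 members (45.4%) and in 21.75% of the other clusters, which had a median of 3 peaks against 6. In class 5, the peaks of highest signal, 15.3% of member peaks held it, against 21.1% in other clusters and 23.1% in peaks of no cluster. In the first and last peaks of a cluster the share was 11.8%, and in those between 7.86%. In class 5 alone these shares were 17.9% and 14.1%.

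The deposited tables of local cut rate were also read outside the peaks. With every peak of either library left out, 6.44% of the bases inside the member spans in replicate 1 and 4.77% in replicate 2 had a cut rate below a false discovery rate of 0.05. The same shares were 3.68% and 2.57% inside the spans of the other clusters and 0.594% and 0.441% over the autosomes. With the peaks, which were chosen for cut signal, the shares in the member spans were 19.1% and 16.0%. Distal peaks found in 1 library only were also dense there. Replicate 1 had 88.7 such peaks per Mb inside the spans and 13.3 outside, and replicate 2 had 53.7 and 10.2. The rule chose the spans for closely spaced peaks of high signal, so these densities are not independent of it. The spans of the other clusters were not counted apart.

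Members hold only peaks found in both libraries and were ranked by the mean of both, so the rule itself disfavoured large differences between animals. Within the members such differences were modest. After the general difference was removed, the largest shifts toward replicate 2 were 0.60 (log2) at Rimbp3, with scores of 9.14 and 15.7, 0.55 at Ptk2, a focal adhesion kinase gene, with 6.07 and 10.0, and 0.53 at Afap1. The largest toward replicate 1 were -0.41 at Dusp6, a phosphatase gene of the MAP kinase pathway, with 8.60 and 7.33, -0.40 at Bahcc1 and -0.38 at Tnrc18. In the Rimbp3 cluster, 23.7% of the score-weighted words were repeated, and in the Ptk2, Afap1 and Dusp6 clusters 0.0% were. Peaks with at least 50% of their words repeated carried more than 50% of the score in 5 members (1.0%) and in 0.602% of the other clusters. The 5 members lay at ranks 2, 52, 96, 432 and 488. The list depends on this limit. The Sfi1 cluster had 13.8% of its score on such peaks, but its strongest peak, with 47.6% of words repeated, made up 40.3% of the score.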

How the data were processed

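DNase-seq was analysed in 2 libraries of 1 group. The authors derived all files from the filtered alignments of each library alone on mm10, per the file headers and notes deposited with them; names of the aligner and callers were not given in the sources used here. Peak signal is the deposited height of a peak's cut density after the authors normalized it to read depth, and every value below 1 was a whole multiple of a step of 0.00484 in replicate 1 and 0.00480 in replicate 2, within 0.05 of a step. If a step is 1 cut after scaling to 1 M, these correspond to 206 M and 208 M cuts. The deposited footprint tables give the false discovery rate of the call as a fraction, 0.01 throughout, and the deposited cut-rate tables list q-values (adjusted p-values) below 0.05.

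From these, peaks of the larger lists (128323 and 119651) were merged with 1 bp overlap. A merged peak took its highest member's signal in each library, and distal shared peaks were joined across gaps of at most 12.5 kb. Genes were from GENCODE M21, and tRNA genes, enhancers and promoter windows (32851) from RefSeq on GRCm38.p6. The members, the 14 gene lists, the 23 motifs and the alternatives were chosen with earlier results of these data known. Members were named by the coding gene body they overlap most, else by the nearest coding TSS. Clusters were named by rank (the 20 highest, 3 at each extreme and 3 on each side of the limit) and genes by their cluster's score within each list; other features were singled out after their values were seen. Some named items are not reported here. No test was made, because the signal chose the members and there is 1 group. Scripts used Python 3.11.15, numpy 2.4.6, pandas 2.3.3 and bedtools 2.31.1 and were tested on simulated peaks. Alternatives were other gaps, limits, peak lists, scores, windows and single libraries.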

Additional observations from a re-analysis of the deposited data

How the results depend on the processing

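No paired analysis was possible because the series has 1 group and no comparison between groups. Of 134 alternative values, 71 stayed within the spread between libraries (counts: within 1.5 times) and 63 moved, and the cause was not tested. Reversals of direction against all distal peaks were not counted. Scored by number of peaks, 83.1% of member peaks held a footprint and 5.74% a CTCF match, below the 89.8% and 7.78% of all distal peaks. Under that score MEF2 rose to 0.411%, above the 0.379% of all distal peaks, while AP-1 and NEUROD stayed below theirs. The number of clusters was 3092 at a maximum gap of 6 kb, 1612 with the smaller peak lists and 1179 at a minimum of 5 peaks. Peaks of a single library gave 8419 (replicate 2 alone) to 9312 (replicate 1 alone), since peaks no longer had to be shared. The median of peaks per cluster was 10.0 at a gap of 25 kb and 9.0 to 12 with single libraries. The median span in kb was 8.13 at a gap of 6 kb, 71.8 at 25 kb, 13.3 with the smaller lists, 17.1 at a distal limit of 2.5 kb, 23.8 at a minimum of 5 peaks, 24.8 when scored by number of peaks, 23.2 when scored without the strongest peak, and 28.6 to 31.8 with single libraries. In the same order the percent that overlapped a coding gene body was 57.2, 86.0, 61.4, 57.2, 72.6, 73.6, 72.2 and 76.4 to 78.8, and it was 72.3 without the tRNA clusters. Of the 500 members, 309 were overlapped by the alternative's clusters at a gap of 6 kb and 309 when scored by number of peaks, the lowest of all settings.

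The percent of member peaks with a footprint was 89.96 at a gap of 6 kb, 92.2 at 25 kb, 92.9 with the smaller lists, 90.4 at a minimum of 5 peaks, 83.1 when scored by number of peaks, 90.2 without the strongest peak, 91.0 when a merged peak took the sum of its members, and 70.4 to 74.3 with single libraries. CTCF matches lay in 12.1% with the smaller lists, 5.74% when scored by number of peaks and 3.61% to 5.54% with single libraries. AP-1 matches lay in 8.06% at a gap of 25 kb, 9.95% in windows of 250 bp and 5.72% to 6.55% with single libraries. NEUROD matches lay in 8.65% at 25 kb, 8.29% at a distal limit of 2.5 kb, 11.1% in windows of 250 bp and 5.93% to 6.92% with single libraries. MEF2 matches lay in 0.235% at 6 kb, 0.479% at 25 kb, 0.249% with the smaller lists, 0.663% in windows of 250 bp and 0.317% to 0.395% with single libraries. The percent of coding genes at a cluster was 2.70 at 6 kb, 6.24 at 25 kb, 3.12 with the smaller lists, 2.55 at a distal limit of 2.5 kb, 3.15 by number of peaks, 2.24 for the gene body alone, 7.26 with 50 kb on either side, 3.27 without the tRNA clusters and 3.77 to 4.15 with single libraries.

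Immediate early genes at a cluster numbered 8 as reported, 9 at a gap of 25 kb, 5 when scored by number of peaks and 4 at a distal limit of 2.5 kb, and 8 under each of the other 9 settings that changed the clusters. Clusters with a tRNA peak numbered 21 when scored by number of peaks, 0 by construction without the tRNA clusters, and 25 to 35 under the other settings. Of the 20 highest, 7 held one as reported, 4 at a gap of 25 kb, 3 without replicate 2 and 1 by number of peaks. Excitatory neuron genes numbered 4 as reported, 3 at a distal limit of 2.5 kb, 6 at a gap of 25 kb and 7 without replicate 2, and oligodendrocyte genes 3 as reported and 1 at a gap of 6 kb. Endothelial and pericyte genes numbered 1 at a gap of 25 kb and 1 without replicate 1. Inhibitory neuron genes numbered 2 when scored by number of peaks and 1 at a minimum of 5 peaks. The alternatives without tRNA clusters, without clusters of repeated words and with summed members were chosen after the data were seen. With 2 libraries, each SD rests on a single difference.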
